A study of Mus musculus with 4 samples.

Results

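Small leucine-rich proteoglycans are represented here by 10 genes: Dcn, Lum, Kera, Epyc, Bgn, Fmod, Prelp, Aspn, Ogn and Omd. They were taken from a list of family members, not by their values, and every ATAC-seq peak in or within 50 kb of their RefSeq extents on mouse build GRCm38 was collected. Peaks of the 4 libraries that overlapped by at least 1 bp were merged into sites, and 123 of 172311 sites lay in these windows. ATAC-seq marks open chromatin, because the Tn5 transposase cuts accessible DNA and adds sequencing adapters to it. The 4 libraries came from chondrocytes of the knee cartilage of C57BL/6 mice at postnatal day 0 to 4, of which 2 were at passage 0 (P0, under 24 h in culture) and 2 at passage 8 (P8). Cells were seeded at 24000 per cm2 and passaged at 48000 per cm2, and each library was made from 50000 cells. The sources used here do not say how many animals were pooled or whether replicates were separate cultures, so a p-value measures only the spread between these libraries, which may be technical. The peak names separate the libraries without a replicate number, so libraries are given as A and B within a passage.

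Small leucine-rich proteoglycans are secreted matrix proteins whose core of leucine-rich repeats binds fibrillar collagens and several growth factors. Class I (decorin Dcn, biglycan Bgn, asporin Aspn) carries chondroitin or dermatan sulfate chains, except asporin, which lacks them. Class II (lumican Lum, keratocan Kera, fibromodulin Fmod, Prelp, osteoadherin Omd) holds many members with keratan sulfate chains or sulfated tyrosines, and class III holds epiphycan Epyc and osteoglycin Ogn. In cartilage several of them regulate the assembly of collagen fibrils, and epiphycan is best known from the growth plate. The genes sit in linked groups: Dcn, Lum, Kera and Epyc on chromosome 10, Aspn, Omd and Ogn on chromosome 13, and Prelp and Fmod on chromosome 1, whereas Bgn stands alone on the X chromosome.

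The RefSeq promoter entries used here (GRCm38.p6) covered 8 of the 10 genes, all but Dcn and Lum. The 250 bases before 4 of these starts are printed because their start peaks showed the range of patterns seen. That of Epyc was called at P0 alone, that of Bgn in 1 library and that of Aspn never. That of Ogn was called in all libraries, with the highest P0 pileup among the sites nearest to each start. Capitals mark 6-base matches, on either strand, to the motif letters of the TATA box (TATAAA), of RUNX factors (TGTGGT), of TEAD factors (GGAATG) and of SOX factors (ACAAAG and, as a second form, ACAATG). A match is a description of the letters and not a binding site.
Epyc, second listed start, plus strand, chr10:97646853-97647102: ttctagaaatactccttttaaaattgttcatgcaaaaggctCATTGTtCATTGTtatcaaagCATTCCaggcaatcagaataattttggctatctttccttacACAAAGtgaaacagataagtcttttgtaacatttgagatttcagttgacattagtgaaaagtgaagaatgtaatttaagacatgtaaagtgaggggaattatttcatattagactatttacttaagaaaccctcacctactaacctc
Ogn, plus strand, chr13:49607765-49608014: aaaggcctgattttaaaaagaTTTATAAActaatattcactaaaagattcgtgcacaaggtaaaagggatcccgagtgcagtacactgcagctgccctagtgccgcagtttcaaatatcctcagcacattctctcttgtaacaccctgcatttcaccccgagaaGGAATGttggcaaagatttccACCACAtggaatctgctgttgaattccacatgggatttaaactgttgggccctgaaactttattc
Bgn, plus strand, chrX:73483351-73483600: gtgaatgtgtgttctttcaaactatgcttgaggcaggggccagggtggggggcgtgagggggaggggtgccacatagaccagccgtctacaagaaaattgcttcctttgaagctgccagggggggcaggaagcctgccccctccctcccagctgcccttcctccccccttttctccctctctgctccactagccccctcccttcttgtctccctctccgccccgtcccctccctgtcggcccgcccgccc
Aspn, plus strand, chr13:49544193-49544442: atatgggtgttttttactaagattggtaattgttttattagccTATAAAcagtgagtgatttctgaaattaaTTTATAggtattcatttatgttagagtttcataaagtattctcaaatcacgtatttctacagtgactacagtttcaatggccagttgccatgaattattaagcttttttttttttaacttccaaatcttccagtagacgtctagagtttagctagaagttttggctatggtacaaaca

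The Epyc stretch held 2 matches to ACAATG next to each other, 1 to ACAAAG and 1 to GGAATG. It had 31.2% GC and 0 CpG, against a median of 52.4% and 6 over 32851 promoter entries of the same length. The Ogn stretch held TATAAA on both strands in overlapping letters, with 1 match each to GGAATG and TGTGGT. The Bgn stretch held none of the capitalised motifs and was 64.4% GC with 7 CpG, and the Aspn stretch held 2 matches to TATAAA at 30% GC. Over all entries, ACAATG occurred in 10.7%, ACAAAG in 16.5%, GGAATG in 12.6%, TGTGGT in 14.0% and TATAAA in 12.4%. The AP-1 motif TGANTCA, held by 6.75% of all entries, was in 0 of the 9 promoter stretches of the family, and the E-box CANNTG, held by 66.2%, was in 5.

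Peaks around the family were more numerous in both P0 libraries than in both P8 libraries, by about as much as peaks of the whole genome. The windows of the 10 genes held 108 and 85 peaks at P0 and 59 and 74 at P8. The ratio of the means was 1.45 (propagated SD 0.337, n = 2 and 2), with an exact two-sided permutation p of 0.333, which is the smallest that 2 against 2 libraries allow. All peaks gave a ratio of 1.40 (145703 and 119974 at P0, 89610 and 99784 at P8). Per 10000 peaks of a library, the windows held 7.41 and 7.08 peaks at P0 and 6.58 and 7.42 at P8, so the groups overlapped. The P0 libraries were also the deeper ones: the lowest background that the peak caller used was 1.42 and 1.18 tags at a base at P0 and 1.02 and 0.979 at P8. In a count of peaks, depth and passage cannot be told apart, and in bulk chromatin fewer cells with an open site and less opening per cell cannot be told apart either.

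Inside the 10 gene bodies alone there were 37 and 27 peaks at P0 and 16 and 20 at P8, a ratio of 1.78 (propagated SD 0.482, exact permutation p = 0.333). Among the 89610 strongest peaks of each library there were 23 and 22 at P0 and 16 and 19 at P8, a ratio of 1.29. No matching ratio for peaks inside all genes is given here. Of the 10 windows, 5 (Kera, Epyc, Bgn, Fmod, Prelp) held more peaks in both P0 libraries than in either P8 library. This pattern was found in 44.9% of 21883 protein-coding gene windows, and the opposite, found in 3.67% of them, in none of the 10. When each library was reduced to its 89610 strongest peaks, 3 windows (Epyc, Bgn, Prelp) kept the P0 excess, against 15.2% of all windows, and those of Aspn and Omd, which overlap, held more peaks in both P8 libraries, against 19.7% of all windows.

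**Figure D1:**
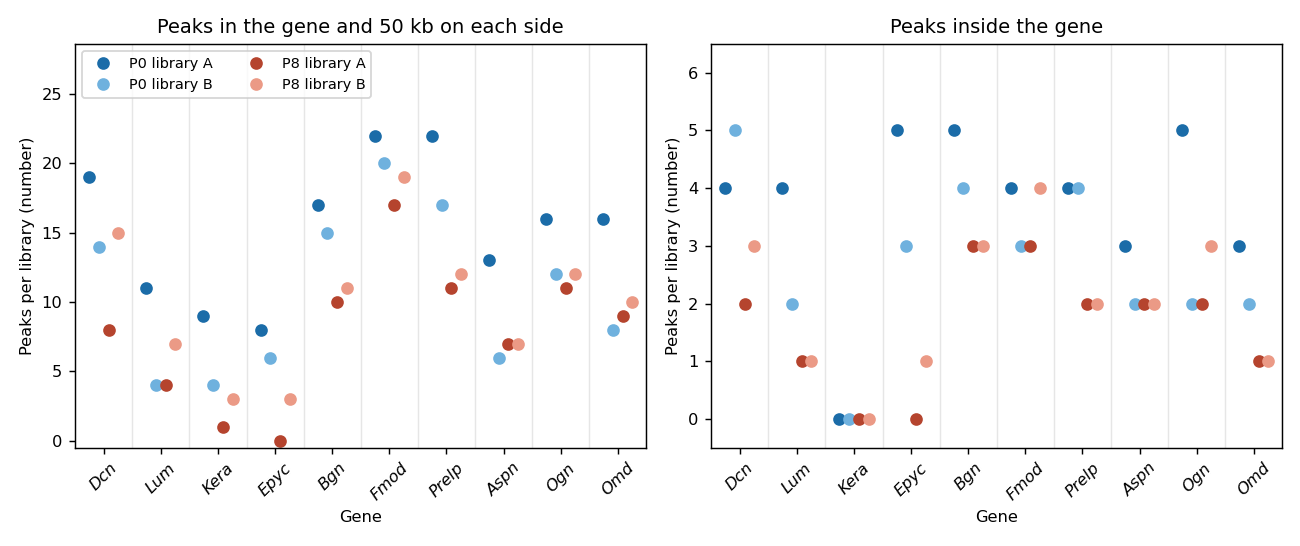
Number of peaks per library for each of the 10 genes, with the 50 kb on each side included (left) and inside the gene alone (right); every dot is 1 library, and neighbouring genes share parts of their windows. The Epyc window ran from 8 peaks in P0 library A to 0 in P8 library A, while the Ogn and Dcn windows overlapped between passages.

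Class I members came first in the chromosome 10 cluster with Dcn, the collagen-binding proteoglycan decorin (chr10:97479500-97518163). Its window held 19 and 14 peaks at P0 and 8 and 15 at P8, so the passages overlapped. Inside the gene the counts were 4 and 5 at P0 and 2 and 3 at P8, without overlap. The site at its lower end, chr10:97479376-97479828, had summit pileups (fragments over the highest base, in tags, not scaled for depth) of 29 and 23 at P0 and 8 and 10 at P8. A second site, chr10:97516430-97516851 near the other end of the gene, was the strongest nearest to Dcn by its mean over the 4 libraries, the measure used for each gene, and had 34 and 31 tags at P0 and 22 and 21 at P8. In these unscaled tags the Dcn sites differed among themselves, but differences between sites were not tested. A site 42.5 kb outside the gene (chr10:97436603-97437030) had 27 and 25 tags at P0 and 7 and 10 at P8.

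Lum, which encodes the keratan sulfate proteoglycan lumican (chr10:97565501-97572703), had 11 and 4 peaks in its window at P0 and 4 and 7 at P8. Its strongest site, chr10:97565345-97565888, lay over its lower end, with 24 and 22 tags at P0 and 11 and 14 at P8. Kera, best known as a corneal proteoglycan (chr10:97606962-97613688), held no peak inside the gene in any library. The 9 and 4 peaks in its window at P0, and 1 and 3 at P8, lay mostly at Lum and Epyc, and only 2 sites, each in 1 library, were nearer to Kera than to another member. The stronger, chr10:97624287-97624383, lay 10.6 kb from Kera and had 11 tags in P8 library B.

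Epyc, the epiphycan gene (chr10:97644068-97681908), had the largest ratio of P0 to P8 window peaks of the 10 genes, 4.67 (propagated SD 6.67). Its window held 8 and 6 peaks at P0 and 0 and 3 at P8, and the gene itself 5 and 3 at P0 and 0 and 1 at P8. A site 176 bp past its second listed start, chr10:97647279-97647506, had 25 and 19 tags at P0 and no peak at P8. The next site, chr10:97649671-97649880, was the strongest at the gene, with 23 and 27 tags at P0 and again no peak at P8. In all, 4 of the 10 sites of the Epyc window were called in both libraries at P0 and never at P8, and none was called in all 4 libraries. The 3 peaks of the window in P8 library B had summits of 9 to 11 tags.

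Taken as 1 region (chr10:97429500-97731908), the chromosome 10 cluster held 28 and 20 peaks at P0 and 8 and 18 at P8. The ratio was 1.85 (propagated SD 1.09, exact permutation p = 0.333). It rested in part on P8 library A, since without P8 library B the ratio was 3.0 and without P8 library A 1.33. Reduced to the 89610 strongest peaks of every library, the cluster held 18 and 15 at P0 and 8 and 16 at P8, which overlapped.

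The chromosome 13 cluster (chr13:49494443-49674501) did not separate the passages, with 19 and 13 peaks at P0 and 13 and 14 at P8. Its ratio was 1.19 (propagated SD 0.320, exact permutation p = 1), and 0.852 when every library was reduced to its 89610 strongest peaks. The whole cluster lies within the extents of Cenpp, which encodes a centromere protein, and of its neighbour Nol8. Aspn, the asporin gene (chr13:49544443-49567565), had 13 and 6 peaks in its window at P0 and 7 and 7 at P8. It had no peak within 1 kb of its start in any library. Its strongest site, chr13:49549619-49549990, lay 5.18 kb past the start and had 25 and 22 tags at P0 and 11 and 14 at P8. Closer to the start, chr13:49545841-49545992 was called in both P8 libraries, with 8 tags in each, and in neither library at P0.

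Omd, the osteoadherin gene known from bone (chr13:49582462-49592612), had 16 and 8 peaks in its window at P0 and 9 and 10 at P8. The site over its start, chr13:49581587-49582633, had 29 and 21 tags at P0 and 11 and 20 at P8. Ogn, which encodes osteoglycin (chr13:49608015-49624501), had 16 and 12 peaks at P0 and 11 and 12 at P8. Its start site, chr13:49607775-49608087, covered nearly all of the printed stretch, with 44 and 41 tags at P0 and 20 and 22 at P8. These P0 summits were the highest among the sites nearest to each start. A further site 948 bp past the Fmod start had 42 and 43 tags at P0. Both Omd and Ogn therefore had a peak at the start in every library. The strongest site nearest to Ogn, chr13:49652575-49653481, lay 28.1 kb away, over the upper end of Cenpp and the lower end of Nol8. It had 77 and 68 tags at P0 and 37 and 40 at P8.

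**Figure D2:**
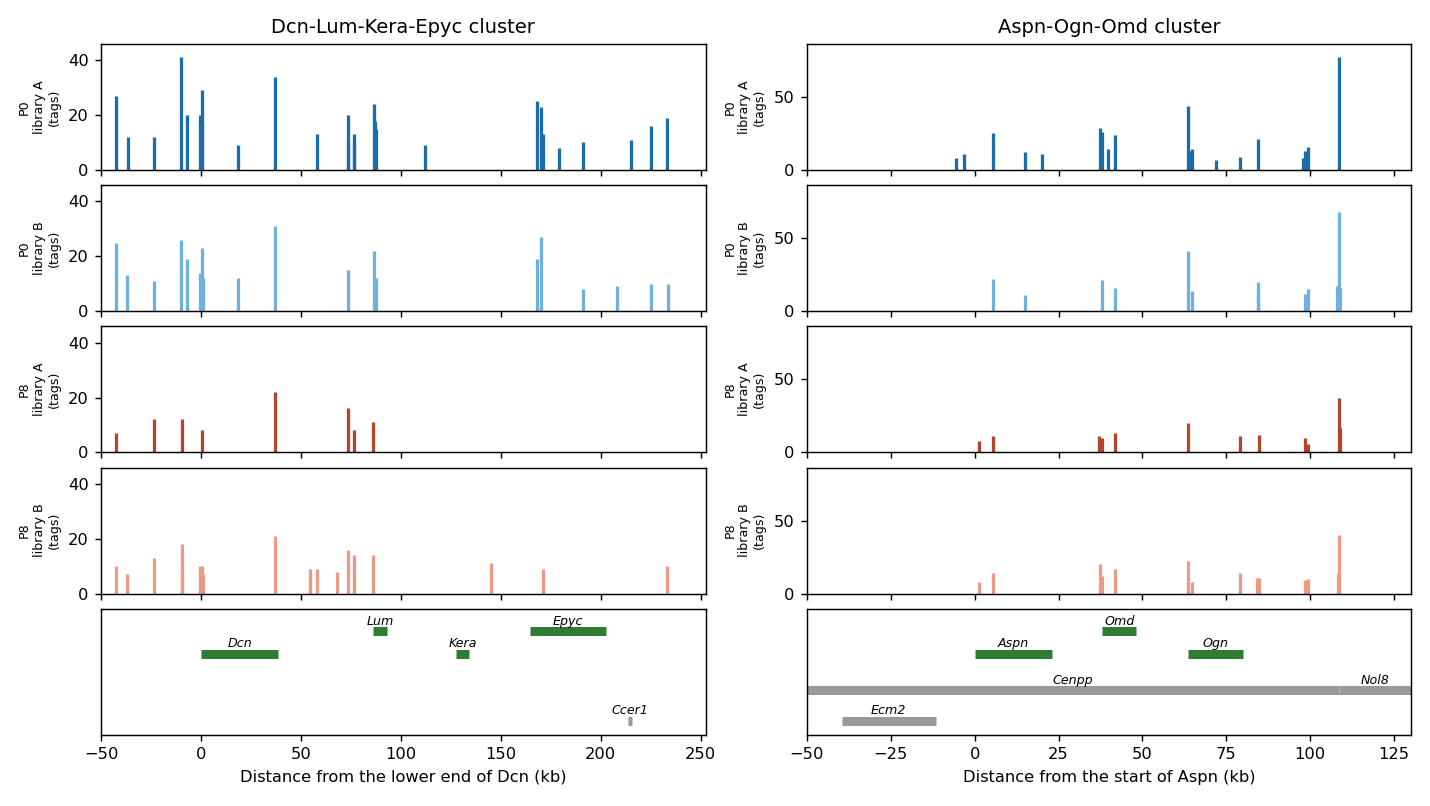
Peaks of the chromosome 10 cluster (left) and the chromosome 13 cluster (right) by library; each line stands at a peak's summit, its height is the summit pileup in tags (not scaled for depth), and bars below mark genes of the family (green) and other genes (grey). P8 library A had no peak over Kera or Epyc, whereas the start of Ogn was marked in all 4 libraries.

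Bgn, which encodes biglycan (chrX:73483601-73495936), had 17 and 15 peaks in its window at P0 and 10 and 11 at P8, a ratio of 1.52 (propagated SD 0.169). A peak at its start was called in P0 library A alone, with 20 tags. The main site of the gene lay further in, at chrX:73486896-73487747, with 49 and 53 tags at P0 and 16 and 19 at P8. A second intragenic site, chrX:73490150-73490554, had 40 and 29 tags at P0 and 16 and 15 at P8. The strongest site of the window, 79 and 67 tags at P0 and 39 and 46 at P8, lay over the upper end of the neighbouring gene Haus7, 24.2 kb from Bgn.

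Fmod, which encodes the collagen-binding fibromodulin (chr1:134037254-134048280), and Prelp, a proteoglycan of cartilage and basement membranes (chr1:133910304-133930102), share the space between them. Fmod had 22 and 20 peaks in its window at P0 and 17 and 19 at P8. The site 119 bp past its start, chr1:134037373-134037489, had 26 and 20 tags at P0 and 16 and 15 at P8. Further sites inside Fmod, chr1:134038202-134038814 and chr1:134039337-134039717, had 42 and 43 against 26 and 18 tags, and 50 and 39 against 25 and 27 tags. The strongest site of its window (65 and 62 tags at P0, 32 and 42 at P8) lay over the upper end of Btg2, a growth-arrest gene. Prelp had 22 and 17 peaks at P0 and 11 and 12 at P8, a ratio of 1.70 (propagated SD 0.325). The site over its start, chr1:133921310-133921735, had 35 and 23 tags at P0 and 17 and 23 at P8, which overlapped. The strongest Prelp site, chr1:133941201-133942368, lay 11.1 kb beyond the upper end of the gene, with 68 and 57 tags at P0 and 45 and 55 at P8.

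**Figure D3:**
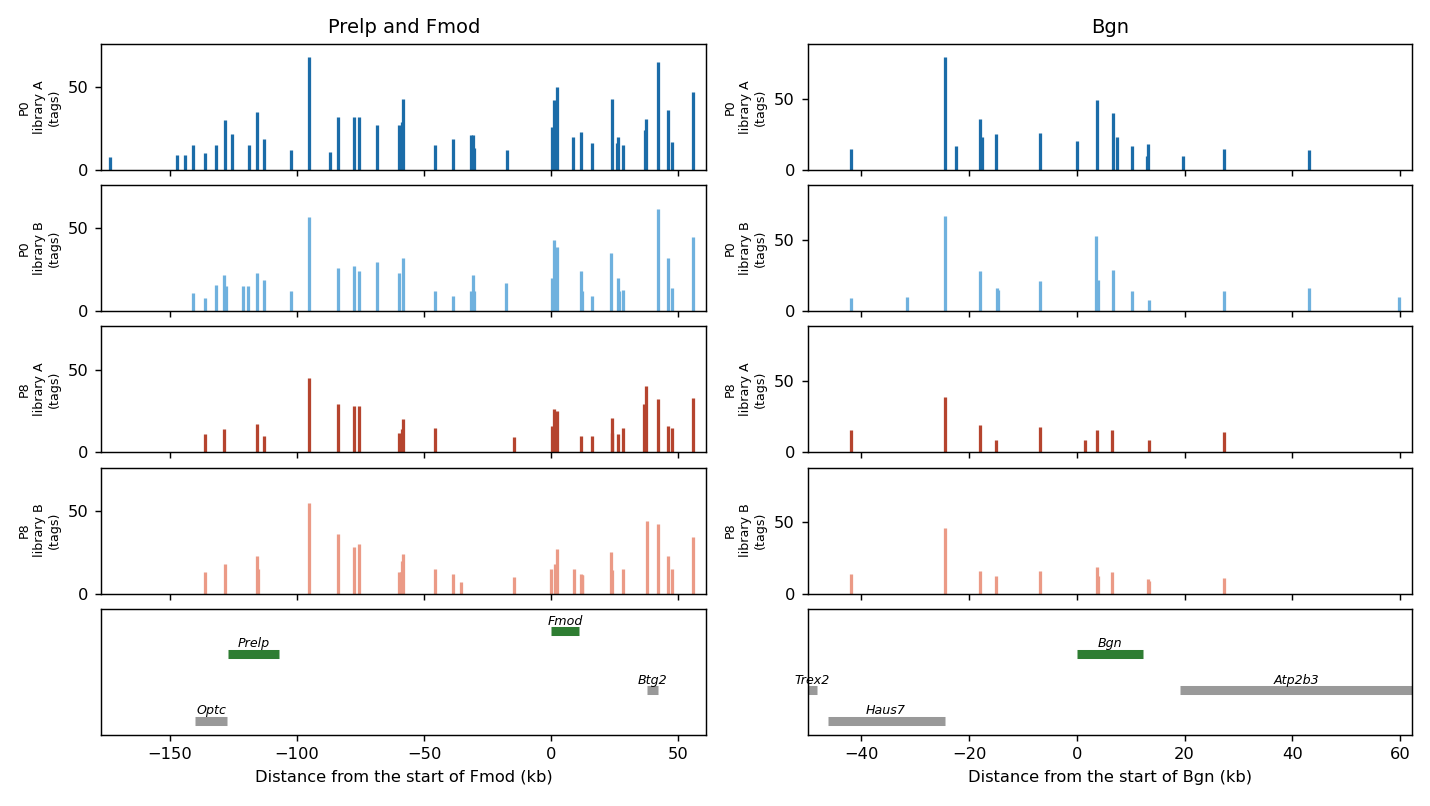
Peaks around Prelp and Fmod (left) and Bgn (right) by library, drawn as lines at the summit with the summit pileup in tags (not scaled for depth) as height; bars below mark genes of the family (green) and other genes (grey). The 3 sites 23.1 to 31.4 kb right of Prelp had 24 to 36 tags in every library, while the site inside Bgn went from 49 and 53 tags at P0 to 16 and 19 at P8.

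Shares of sites called at a single passage were near those of the genome. Of the 123 sites, 44 were called in all 4 libraries and 45 in 1 library, of which 26 were in P0 library A. Called in both libraries at P0 and neither at P8 were 17 sites, or 13.8% (95% Wilson interval 8.81 to 21.0%, counting error only), against 17.0% of all sites. Called in both at P8 and neither at P0 were 2, or 1.63% (0.447 to 5.74%), against 1.84% of all sites. The chromosome 10 cluster held 7 of the 17 among its 32 sites, and the chromosome 13 cluster 1 among its 20. Among the P0 sites, chr1:133968531-133969076 between Prelp and Fmod was the strongest, with 27 and 30 tags, and chr1:134006222-134006721 had 21 and 22. The second P8 site was chr1:134022483-134022607, 14.6 kb from Fmod, with 9 and 10 tags. A site without a called peak may still hold tags below the caller's threshold, so absence here is absence from the peak list.

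Summit pileups were then compared at the sites called in all 4 libraries, 44 near the family and 55890 in all. Each library was centred on its median log2 pileup over these sites, and limma was fitted over all of them, with calls at a false discovery rate (FDR, Benjamini-Hochberg over all sites) of 0.05. Values below are therefore relative to the median site of the same library. At P8, 3 of the 44 sites were lower (6.82%), where 8.90% of all sites were, and 8 were higher (18.2%), where 13.8% were. Centred values of both P0 libraries lay above both P8 libraries at 14 of the 44 sites (27.6% of all sites), and the reverse held at 13 (32.3% of all sites). Only sites with a peak in every library could enter, so no site of the Epyc window was among them.

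The 3 sites that fell at P8 were the intragenic Bgn site, the site at the lower end of Dcn and the site 42.5 kb from Dcn. At the Bgn site (49 and 53 tags against 16 and 19) the log2 difference of P8 minus P0 was -0.91 (SE 0.16, FDR 0.000140, limma). The Dcn end (29 and 23 against 8 and 10) gave -0.89 (SE 0.24, FDR 0.00592), and the distal Dcn site (27 and 25 against 7 and 10) gave -0.998 (SE 0.243, FDR 0.00290). Raw pileups did not overlap at any of the 3. The raw medians over all 55890 sites, 29 and 24 tags at P0 and 16 and 18 at P8, did not overlap either. Measured as fold enrichment over the local background in place of the pileup, the distal Dcn site kept its call (-1.05, FDR 0.00411), but the Bgn site (-0.24, FDR 0.478) and the Dcn end (-0.33, FDR 0.296) did not. The second Bgn site (-0.50, FDR 0.0515) and a site 9.47 kb from Dcn (41 and 26 tags at P0, 12 and 18 at P8, -0.52, FDR 0.0617) missed the threshold by limma.

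The 8 sites that rose relative to the median site lay outside the 10 genes, 6 of them between genes. Between Prelp and Fmod stood a run of them 23.1 to 31.4 kb from Prelp. Its first site, chr1:133953223-133953960, had 32 and 26 tags at P0 and 29 and 36 at P8, a log2 difference of 0.80 (SE 0.16, FDR 0.000356, limma). The neighbouring sites chr1:133961507-133962117 (32 and 24 against 28 and 30 tags) and chr1:133959448-133959897 (32 and 27 against 28 and 28 tags) gave 0.70 (FDR 0.00188) and 0.57 (FDR 0.0102). Their raw pileups overlapped between passages, while the median over all 55890 sites was 29 and 24 tags at P0 and 16 and 18 at P8. With fold enrichment as the measure all 3 sites of the run lost their call (0.27 with FDR 0.329, 0.44 with FDR 0.156 and 0.18 with FDR 0.583, limma). The largest differences were at weak sites, 1.06 (SE 0.25) in Optc beside Prelp with 10 and 8 tags at P0 and 11 and 13 at P8, and 1.002 (SE 0.255) in Haus7, 41.9 kb from Bgn, with 15 and 9 against 16 and 14. The others, 45.6 kb and 17.1 kb from Fmod and 23.4 kb from Dcn, had 11 to 15 tags in every library and differences of 0.80, 0.74 and 0.76. A weak site that fell at P8 could lose its call there and so leave the fit. Among sites with a mean of at least 20 tags, 4 of 23 near the family were higher and 1 lower. Over all such sites 10.6% were higher and 10.2% lower. The part of this limit in the rises at weak sites was not tested.

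By position, sites inside the genes gave 2 lower and 0 higher of 13 tested by limma. At an unadjusted p under 0.05 they gave 4 lower and 0 higher, where 8102 of all 55890 sites were lower and 11339 higher. At the FDR of 0.05, sites between genes gave 1 lower and 6 higher of 21. Over the genome 9.21% of sites inside protein-coding genes were lower and 11.1% higher, and of sites between them 8.37% were lower and 18.3% higher. The median log2 difference was -0.25 inside the 10 genes and 0.18 between genes, where all genic and intergenic sites had -0.02 and 0.11. The contrast by position was not tested. With fold enrichment as the measure the median inside the genes was 0.11 and no site there was called, so its sign depends on the measure. In the chromosome 13 cluster 0 of 8 tested sites passed the limma test, 1 being lower and 0 higher at an unadjusted p under 0.05. The Ogn start gave -0.38 (SE 0.16, FDR 0.0788), the Omd start -0.10 (SE 0.23) and the Aspn site -0.28 (SE 0.23).

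Where each library was scaled by its background tags and not centred, the median of all sites moved from 0.02 to -0.25, and 11 of the 44 sites were then lower and 3 higher, where 21.2% of all sites were lower and 4.79% higher. Over all sites 81.5% of the calls were then to the lower side, against 39.2% with centring. The 3 lower sites kept their calls, as did 3 of the 8 higher ones. Without P0 library A, limma called none of the 44 sites, nor any of all sites, although 4 were lower and 9 higher at an unadjusted p under 0.05.

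**Figure D4:**
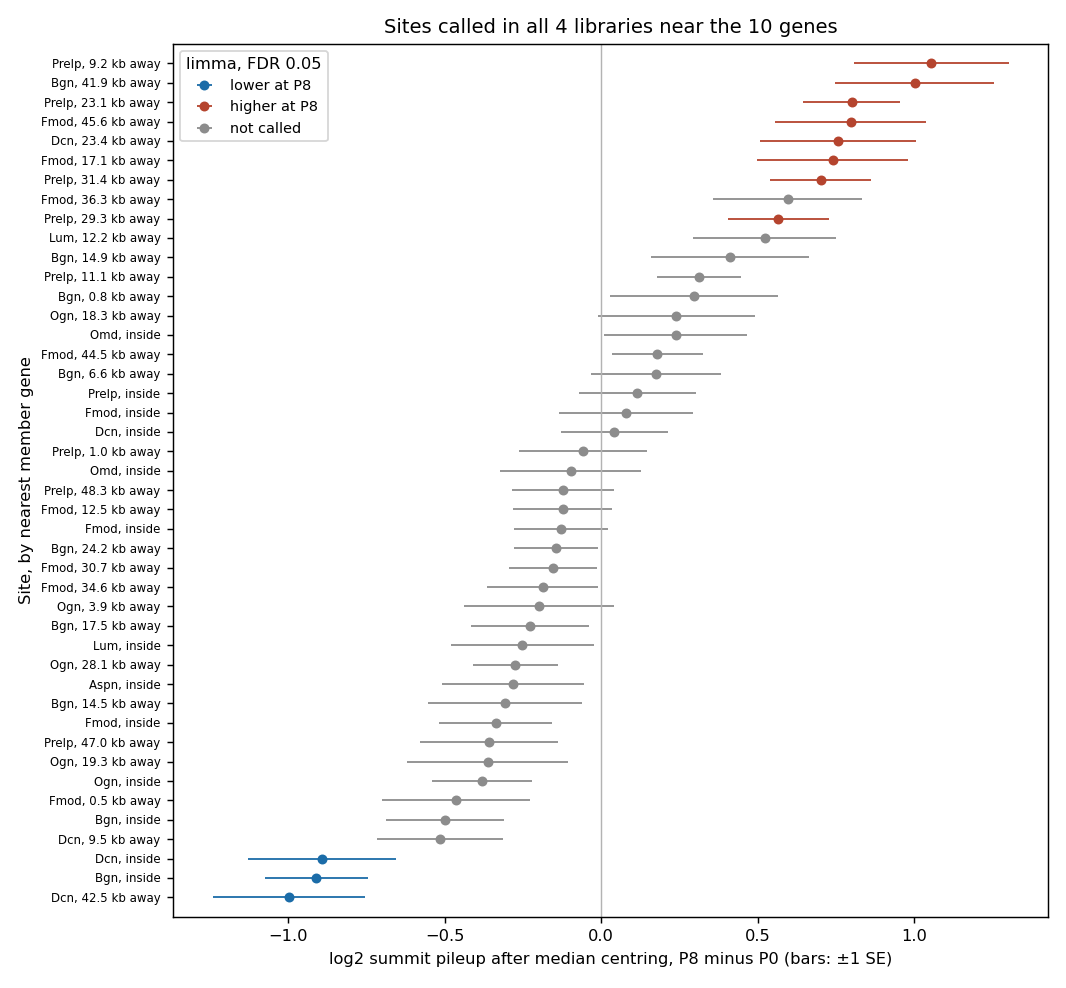
Log2 difference in median-centred summit pileup, P8 minus P0, at the 44 sites called in all 4 libraries, with bars of 1 SE from limma; sites are named by the nearest gene of the family and their distance from it. The 3 sites lower at P8 belong to Dcn and Bgn, and the 8 higher ones lie outside the 10 genes, 4 of them nearest to Prelp.

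At the gene starts, 8 and 7 of the 10 genes had a peak within 1 kb at P0 and 6 and 6 at P8, with both ends counted for Dcn and Lum, whose strand is not in the table used. In all 4 libraries 6 of the 10 did (Dcn, Lum, Fmod, Prelp, Ogn, Omd), where 47.5% of 27025 genes with a known start did. Epyc was the 1 gene with a start peak in both libraries at P0 and neither at P8, a pattern of 4.07% of all genes. That peak lay at its second listed start, and no library had a peak within 1 kb of its first. Bgn had its start peak in P0 library A alone, and Kera and Aspn had none. The class III genes among the 10, Epyc and Ogn, thus differed in whether a start peak was called at P8. Epyc had 25 and 19 tags with no P8 peak, and Ogn 44 and 41 tags with 20 and 22 at P8. The Epyc peak lay 3' of the printed stretch, and that of Ogn over it.

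**Figure D5:**
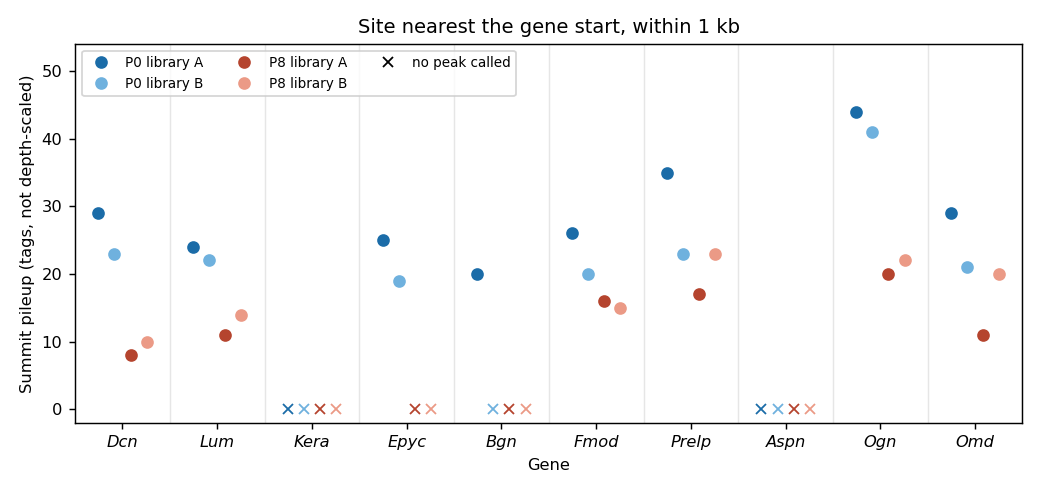
Summit pileup (tags, not scaled for depth) of the site nearest to the start of each gene within 1 kb, by library; crosses at 0 mean that no peak was called there, and for Dcn and Lum either end of the gene counts. Ogn had the highest values in both P0 libraries, Epyc had peaks at P0 alone, and Kera and Aspn had none.

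Enzymes that build the chains of these proteoglycans had peaks at most known starts at both passages. Of 12 linker and chain enzymes of chondroitin sulfate, 6 windows held more peaks in both P0 libraries, against 44.9% of all windows. Of their 136 tested sites 13 were lower and 13 higher at P8, where 8.90% of all sites were lower and 13.8% higher. All 9 known starts of these enzymes had a peak in every library, where 47.5% of genes with a known start did. The list taken for dermatan sulfate (Dse, Dsel, Chst14, Ust, Chst11, Chst12, Chst13) showed this excess in 4 of 7 windows, with 9 lower and 10 higher of 66 sites. Chst11 alone held 25 of these sites, 7 of them lower and 5 higher. Enzymes of keratan sulfate showed the excess in 4 of 6 windows (4 lower, 6 higher of 30). B3gnt7, an elongating enzyme of keratan sulfate, had 11 and 12 peaks at P0 and 5 and 5 at P8, and its start peak was called at P0 alone. Of the processing proteases Bmp1 and Tll1 and their enhancer Pcolce, 1 of 3 windows had the excess (4 lower, 1 higher of 29 sites).

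Marker genes of cell types were measured beside the family. The windows of 7 chondrocyte markers (Col2a1, Acan, Sox9, Col9a1, Col11a2, Matn1, Hapln1) had 29 lower and 1 higher site of 57 tested. Of these windows 6 held more peaks in both P0 libraries, against 44.9% of all windows. The windows of 5 fibroblast markers had 1 lower and 18 higher of 45. Over all tested sites 8.90% were lower and 13.8% higher. Fewer sites were tested in the windows of macrophage (0 lower, 1 higher of 18), endothelial (1 and 2 of 9), skeletal muscle (0 and 1 of 9), osteoblast (0 and 2 of 24) and tendon markers (1 and 2 of 10). Inside these genes the chondrocyte list held 47 and 42 peaks at P0 and 22 and 36 at P8, the fibroblast list 18 and 16 and then 16 and 15. Of the chondrocyte list, Acan, Matn1 and Hapln1 held more in both P0 libraries, and Sox9, Col9a1 and Col11a2 did not separate the passages. Col2a1 went the other way, with 1 and 1 peaks at P0 and 3 and 5 at P8. The macrophage list held 13 and 8 and then 4 and 6, the endothelial 13 and 9 and then 5 and 9, the muscle 4 and 2 and then 2 and 4, the osteoblast 5 and 3 and then 2 and 1, and the tendon list 7 and 5 and then 3 and 5. Myog of the muscle list and Bglap of the osteoblast list held 0 in every library, and the other genes of those lists (Myod1, Pax7, Sp7, Ibsp) held peaks. The part of a changing cell mixture in the values of the family was not tested.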

How the data were processed

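ATAC-seq libraries of P0 and P8 chondrocytes (n = 2 each, 50 bp paired-end reads) were aligned by the authors with Bowtie2 to mm10 (GRCm38), and peaks were called with MACS2 at default settings in each library. For each peak the deposited lists give the summit pileup, a signal in tags that the authors did not scale for depth, a fold enrichment (ratio) over local background and 2 significance columns, −log10 p-value and −log10 q-value. Another table that was deposited holds the authors' own DiffBind fold changes and was not used. No per-library value column was left unused.

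Genes were placed with the RefSeq table of GRCm38.p6, and 32851 promoter entries gave starts and sequences. The lowest background of each library, from pileup and fold enrichment, gave its depth: 194 and 162 tags per 10 kb at P0, 140 and 134 at P8. The deposited −log10 p equalled a Poisson value with the local background within 0.001 for 100% of peaks. For equal numbers of peaks, the 89610 strongest by −log10 p were kept. Log2 summit pileups of sites called in all 4 libraries were median-centred and fitted with limma 3.58.1 (trend) in R 4.3.3. Single values were compared by exact two-sided permutation tests, and Wilson intervals are at 95%. Fits and counts were tested on simulated data. The software was scipy 1.17.1, pandas 2.3.3, numpy 2.4.6 and matplotlib 3.10.9 under Python 3.11.15.

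The members, gene lists, motifs and tests were chosen with earlier results of these data known. All 10 genes are named, each with its site nearest the start and its strongest site, and all sites past the FDR of 0.05. Other sites, and genes of the lists, were named after their values were seen. Alternatives were matched background, equal numbers of peaks, a −log10 q of at least 5, covered length, windows of 10 and 100 kb, merging within 200 bp, scaling by background, fold enrichment, no trend, at least 20 tags, 3 kb at starts and leaving out each library. Quantile normalization, the share of all peaks and peaks inside genes alone were added after the data were seen.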

Additional observations from a re-analysis of the deposited data

How the results depend on the processing

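The ratio of P0 to P8 peaks over the 10 windows stayed above 1 in every alternative and was 1.04 as a share of all peaks. For the chromosome 10 cluster it ran from 1.33 to 3.0 when 1 library was left out. For the chromosome 13 cluster it was 0.852 with equal numbers of peaks, 1.63 at a −log10 q of at least 5 and 1.52 for covered length. The share of sites in both P0 libraries alone ran from 16.4 to 38.4% when 1 library was left out, and that in both P8 libraries alone from 1.79 to 7.38%, or 6.59% with equal numbers of peaks (5.08% of all sites). Leaving out a library leaves 1 peak list on that side, which by construction raises these shares. Of the 44 tested sites, the number lower at P8 was 11 with background scaling, 1 at 20 tags or more (fewer sites tested) and 0 to 5 when 1 library was left out (the lone library is then taken to vary like the others). The number higher was 3 with background scaling, 4 with fold enrichment, 4 at 20 tags or more, 4 with quantile normalization and 0 to 7 when 1 library was left out. The mean number of genes with a start peak, 1.5 more at P0, differed by 0 within 3 kb. Except where stated, the cause was not tested. The other 56 alternative values of these results stayed within their spread or, for counts, within 1.5 times. The 11 called sites kept their call in 55 fits and lost it in 37, and none changed sign. No paired analysis was possible because the library prefixes of the peak names carry no replicate number. Peaks were called down to 6 tags, and each passage had 2 libraries.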

Other observations

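Other genes with leucine-rich repeats of this kind gave 4 of 8 windows (Optc, Chad, Nyx, Chadl) with more peaks in both P0 libraries. Of their 50 tested sites, 7 were lower and 8 higher at P8 (limma). Over the genome 44.9% of windows held more peaks in both P0 libraries, and 8.90% of tested sites were lower and 13.8% higher. Chadl, a chondroadherin-like cartilage gene, had 13 and 13 peaks in its window at P0 and 9 and 9 at P8, and its start peak was called at P0 alone. Chad, chondroadherin, had 12 and 13 peaks at P0 and 7 and 9 at P8. Nyx, nyctalopin of the retina, had 4 of 5 tested sites lower at P8, although its window shares sites with neighbouring genes. The window of Ecm2, which adjoins Aspn, had 11 and 7 peaks at P0 and 10 and 11 at P8, with none inside the gene. These genes were named after their values were seen, and Optc and Ecm2 share windows with Prelp and Aspn.

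A broad site over the lower end of Btg2, 25.4 kb from Fmod (chr1:134073698-134074980), had 31 tags in P0 library A and 40 and 44 at P8. No peak was called there in P0 library B, so it could not be tested.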
